A study of Mus musculus with 40 samples.

Results

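The genes described here are Srebf2, Scap, Insig1, Insig2, Stard4 and Npc1l1, which encode or control the sterol-regulated transcription factor SREBP2 or carry cholesterol into or within cells. They were chosen by gene symbol, and all 6 were found among the 32544 gene rows of the deposited count table. Liver RNA was sequenced from male C57BL/6 mice raised germ-free, that is without gut microbes, and sampled at postnatal day 64. For 6 weeks they had received delta-valerobetaine (VB), which is a bacterial metabolite with a trimethylammonium group, or vehicle, on a Western diet or a control diet. There were 5 Western diet VB mice, 5 Western diet vehicle mice, 5 control diet VB mice and 5 control diet vehicle mice. Being germ-free is shared by all 20 mice, so no comparison here involves mice with a microbiota.

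SREBP2 is made as a precursor held in the membrane of the endoplasmic reticulum. SCAP binds the precursor and carries it to the Golgi apparatus, where the proteases encoded by Mbtps1 and Mbtps2 release the part that enters the nucleus and switches on genes of cholesterol synthesis and uptake. When sterols are plentiful, INSIG1 and INSIG2 hold SCAP in the endoplasmic reticulum and the factor stays inactive. Insig1 is itself a target gene of SREBP factors, which closes a feedback loop, whereas Insig2 is not such a target and in mouse liver has a transcript that falls with insulin. STARD4 is a soluble carrier that brings cholesterol to the endoplasmic reticulum, and its gene is also sterol-regulated. NPC1L1 takes up cholesterol at the brush border of the intestine, and in humans, unlike mice, it is also abundant in liver.

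Promoter windows of Srebf2, Insig1 and the upstream start of Insig2 are shown because Insig2 passed in no comparison below. Srebf2 and Insig1, in contrast, both fell with the Western diet in vehicle mice. Each runs from 250 bases before to 50 bases after a RefSeq transcript start on GRCm38.p6, 5′ to 3′ on the strand of the gene. Capitals mark CCAAT boxes, the site of the SREBP partner NF-Y, on either strand, and the string TCACCCCA.
Srebf2, chr15:82147019-82147318, plus strand: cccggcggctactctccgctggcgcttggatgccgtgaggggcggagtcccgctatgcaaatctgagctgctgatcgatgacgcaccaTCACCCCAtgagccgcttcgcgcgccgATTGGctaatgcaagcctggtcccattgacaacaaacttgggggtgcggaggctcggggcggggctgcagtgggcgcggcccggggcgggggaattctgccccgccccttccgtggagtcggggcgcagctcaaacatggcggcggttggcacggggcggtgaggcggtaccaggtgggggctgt
Insig1, chr5:28071162-28071461, plus strand: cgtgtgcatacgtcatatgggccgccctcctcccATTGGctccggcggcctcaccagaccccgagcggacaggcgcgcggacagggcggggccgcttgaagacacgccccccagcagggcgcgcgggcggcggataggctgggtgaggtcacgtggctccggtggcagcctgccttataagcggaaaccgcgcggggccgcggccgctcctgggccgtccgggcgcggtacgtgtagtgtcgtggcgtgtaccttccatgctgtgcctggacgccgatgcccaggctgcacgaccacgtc
Insig2, chr1:121332540-121332839, minus strand: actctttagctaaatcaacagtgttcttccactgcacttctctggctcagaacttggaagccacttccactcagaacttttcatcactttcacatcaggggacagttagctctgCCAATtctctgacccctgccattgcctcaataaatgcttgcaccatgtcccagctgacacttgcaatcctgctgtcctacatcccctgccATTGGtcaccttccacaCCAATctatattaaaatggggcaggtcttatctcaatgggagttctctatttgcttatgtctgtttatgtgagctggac
The sterol regulatory element searched, TCACNCCAC on both strands, was in none of these 3 windows and in 1.24% of the 32851 RefSeq windows of this length. The shorter element CACCCCAC, in 2.87% of windows, was absent from the 3 as well. The Srebf2 window holds TCACCCCA at position -162 from the start, with a CCAAT box on the minus strand at -135. That string was picked after the sequence had been read, and 1.56% of all windows hold it on either strand. The Insig1 window has 1 CCAAT box, on the minus strand at -216, and an E-box, CACGTG, at -101. The E-box shares letters with the REV-ERB or ROR motif AGGTCA at -105. On either strand, 7.15% of all windows hold CACGTG and 16.3% hold AGGTCA. The upstream Insig2 window has 3 CCAAT boxes, while 37.4% of all windows have at least 1. A match is a description of letters and not of a bound site.

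Sequencing depth ran from 16315342 to 24566686 counts per mouse. The livers carried their defining markers, with Alb, which encodes albumin, at 12039 to 26048 counts per 1000000 (CPM). Summed stellate cell markers were at 64.4 to 153 CPM in Western diet VB mice, 137 to 180.4 CPM in Western diet vehicle mice, 168 to 193 CPM in control diet VB mice and 143 to 202 CPM in control diet vehicle mice. Summed cholangiocyte markers were at 5.40 to 15.1 CPM in Western diet VB mice, 4.70 to 7.51 CPM in Western diet vehicle mice, 8.88 to 10.5 CPM in control diet VB mice and 8.51 to 13.3 CPM in control diet vehicle mice. Summed enterocyte markers, nearly all of it Fabp2, were at 114 to 233 CPM in Western diet VB mice, 152 to 310.3 CPM in Western diet vehicle mice, 62.9 to 94.1 CPM in control diet VB mice and 63.1 to 89.3 CPM in control diet vehicle mice. In vehicle mice the last 2 lists did not overlap between the diets, and the part of all 3 lists in the results was not tested. Western diet vehicle mouse 4 stood apart, with 4.62% of its counts from mitochondrially encoded genes against 1.99% to 3.33% in the other mice. For Srebf2, Insig1 and Stard4, the main estimates of change that include this mouse are given with and without it. The correlations, the variance shares and the estimates with a covariate include it throughout. Core clock genes also differed between the groups. The first principal component of 19 clock genes, scaled to unit SD and here called the clock score, averaged 0.27 ± 0.39 in Western diet VB mice, 1.26 ± 0.13 in Western diet vehicle mice, -0.20 ± 0.27 in control diet VB mice and -1.33 ± 0.42 in control diet vehicle mice (SD, n = 5 each). The labels give no hour of collection, and the names of the libraries take another form on each diet, so handling that went with those names cannot be told apart from diet.

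Of the 6 genes, 5 were measurable in liver. In GRCm38 and the GENCODE annotation, Srebf2 lies on chromosome 15 from 82147181 to 82205379, Scap on chromosome 9 from 110333288 to 110384950 and Insig1 on chromosome 5 from 28071363 to 28078662, all on the plus strand. On the minus strand lie Insig2 on chromosome 1 from 121304353 to 121332589, Stard4 on chromosome 18 from 33199355 to 33213862 and Npc1l1 on chromosome 11 from 6211013 to 6230143. CPM on TMM-scaled library sizes were divided by the length of merged exons to compare levels between genes. Insig2 was the most abundant, with a mean of 91.3 CPM per kilobase over the 20 mice and a range of 68.6 to 113.8. Insig1 followed at a mean of 42.7 CPM per kilobase, with a far wider range of 7.77 to 80.2. Scap averaged 14.5, Stard4 5.33 and Srebf2 3.94 CPM per kilobase. Per length, the levels of Stard4 and Srebf2 overlapped in 3 of the 4 groups, while in control diet vehicle mice Stard4, at 6.34 to 8.85 CPM per kilobase, lay above Srebf2, at 4.52 to 6.14. In Western diet vehicle mice those of Insig1 (7.77 to 21.8) overlapped those of Scap (7.31 to 14.5). In bulk liver, fewer cells of a type and less RNA per cell cannot be told apart.

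Npc1l1 was at the limit of detection. A single read was counted over all 404103374 counts, in Western diet VB mouse 2, and none in the other 19 mice. A count of 0 in 1 mouse allows up to 0.12 to 0.18 CPM, taken as 3 counts of its total, so a difference between groups was not detectable at this depth. Npc1l1 did not pass the filter on low counts and enters no test. Of the enterocyte markers, Fabp2 reached 62.8 CPM or more in every mouse, while Vil1, Lct and Sis stayed under 0.19 CPM and Alpi was at 0 in all mice.

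**Figure D1:**
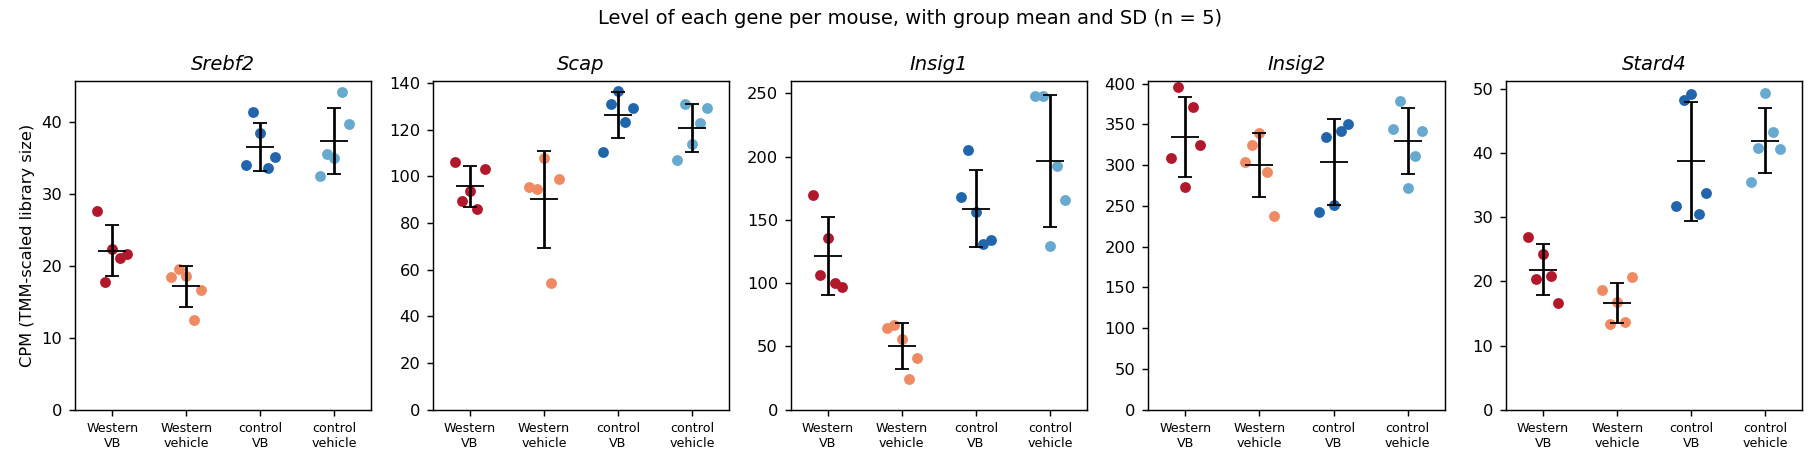
CPM on TMM-scaled library sizes (y axis, from 0) of the 5 measurable genes in each mouse, by group (x axis); bars show the mean and SD of 5 mice. Srebf2 and Stard4 were low in both Western diet groups, Insig1 was lowest in Western diet vehicle mice (24.0 to 67.3 CPM), and Insig2 overlapped across all groups.

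The comparisons share groups, so that Western diet vehicle mice enter both the diet comparison of vehicle mice and the VB comparison on the Western diet. The first comparison asked what the Western diet did to these genes in vehicle mice. Srebf2, Stard4, Insig1 and Scap fell, and Insig2 did not pass the test. In edgeR's quasi-likelihood test 4 of the 5 tested genes fell and none rose, where 7.59% of 12616 genes fell and 8.92% rose. The threshold was 0.05 for the p adjusted over all these genes by the Benjamini-Hochberg method. The median log2 change of the 5 was -1.12, against 0.02 over all genes tested. Srebf2, Stard4 and Insig1 did not overlap between the groups, and 5.77% of all tested genes were lower without overlap.

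Insig1, the feedback gene, had the largest change of the 5 on the log2 scale. Its level was 65.0, 67.3, 55.8, 24.0 and 40.9 CPM in Western diet vehicle mice, against 248, 248, 129, 193 and 166 CPM in control diet vehicle mice. The highest Western diet mouse lay below the lowest control diet mouse. The fall was 3.88-fold, a log2 change of -1.96 (SE 0.25, adjusted p = 1.25e-05). Without Western diet vehicle mouse 4, the lowest of all 20, it was -1.79 (SE 0.23, adjusted p = 3.07e-05).

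Srebf2, which encodes the factor itself, was at 18.5, 19.6, 18.6, 12.4 and 16.6 CPM in Western diet vehicle mice, against 32.4, 35.6, 35.0, 44.1 and 39.8 CPM in control diet vehicle mice. All 5 Western diet values lay below all 5 control diet values. The log2 change was -1.12 (SE 0.12, adjusted p = 1.20e-06), a 2.17-fold fall, and -1.04 without mouse 4. Stard4, the sterol carrier, was at 18.7, 13.3, 16.8, 13.7 and 20.6 CPM in Western diet vehicle mice, against 35.4, 40.8, 49.4, 43.4 and 40.7 CPM in control diet vehicle mice. These groups were apart as well, and the log2 change was -1.33 (SE 0.16, adjusted p = 3.48e-06), and -1.29 without mouse 4.

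Scap, the escort of the precursor, had a smaller estimate. It was at 95.4, 94.7, 108, 54.4 and 99.1 CPM in Western diet vehicle mice and at 107, 131, 114, 123 and 129 CPM in control diet vehicle mice. The groups overlapped by 1 Western diet mouse, and mouse 4 was far below the rest of its group. The log2 change of -0.42 (SE 0.13, adjusted p = 0.0251) was -0.30 without mouse 4 (adjusted p = 0.0139). The call was lost without control diet vehicle mouse 2 (adjusted p = 0.0632) or mouse 5 (adjusted p = 0.0548). Lane 2 only (adjusted p = 0.0727), only the groups compared (adjusted p = 0.095) and the clock score as a covariate (adjusted p = 0.861) lost it too. Insig2 lay between 238 and 339.8 CPM in Western diet vehicle mice, against 272 to 378 CPM in control diet vehicle mice. Its log2 change was -0.14 (SE 0.13, adjusted p = 0.534), with an approximate 95% interval of -0.38 to 0.11.

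In VB mice the same diet comparison gave smaller estimates for Srebf2, Stard4 and Insig1, and of these differences the one for Insig1 passed its test, given further on. Srebf2 and Stard4 still fell, while Insig1, Scap and Insig2 did not pass. Of the 5 genes 2 fell and none rose, where 3.22% of all tested genes fell and 3.23% rose, and the median log2 change was -0.40 against 0.00 over all genes. Srebf2 was at 27.6, 17.7, 22.4, 21.1 and 21.7 CPM in Western diet VB mice, against 34.1, 41.4, 38.4, 33.6 and 35.2 CPM in control diet VB mice. The groups did not overlap, and the log2 change was -0.73 (SE 0.12, adjusted p = 0.0006). Stard4 was at 26.9, 20.3, 24.3, 20.9 and 16.6 CPM in Western diet VB mice, against 31.8, 48.2, 49.2, 30.5 and 33.8 CPM in control diet VB mice. It did not overlap between the diets, and its log2 change was -0.83 (SE 0.16, adjusted p = 0.00179).

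Insig1 was at 169.5, 106, 136, 100.04 and 96.8 CPM in Western diet VB mice, against 168, 206, 156, 131 and 134 CPM in control diet VB mice. The groups overlapped, unlike those of vehicle mice. The log2 change was -0.39 (SE 0.24, adjusted p = 0.362), with an approximate 95% interval of -0.85 to 0.08. Scap was at 85.9 to 106 CPM in Western diet VB mice and at 111 to 137 CPM in control diet VB mice, so that all 5 Western diet values lay below. Its log2 change of -0.40 (SE 0.13) had an adjusted p of 0.0624 in edgeR, against 0.0293 in DESeq2 and 0.00321 in limma-voom. In edgeR the adjusted p was 0.0448 with lane 1 only and 0.00653 with only the groups compared. It was 0.00145 without Western diet vehicle mouse 4, which is in neither group compared but is part of the same fit. Apart from the replicate block, given further on, Scap passed here in no other run, and single mice left out gave up to 0.134. With Scap, 3 of the 5 genes were lower without overlap, beside 4.48% of all tested genes.

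**Figure D2:**
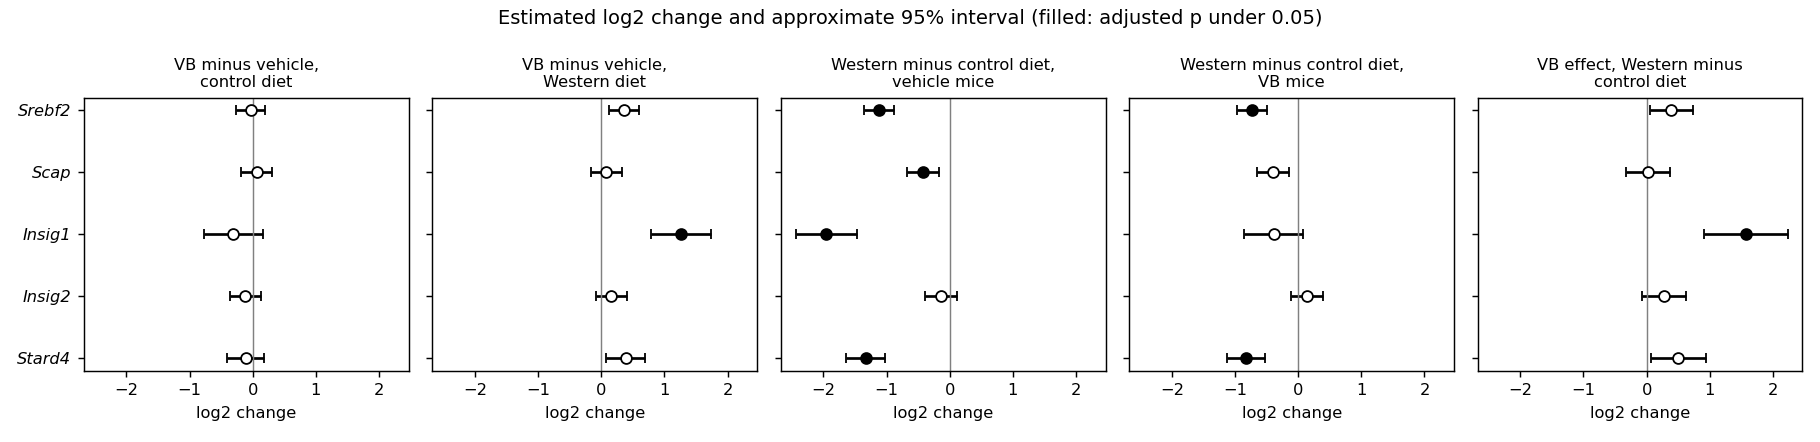
Estimated log2 change (x axis) of the 5 tested genes (rows) in the 5 comparisons, with approximate 95% intervals; filled points passed at an adjusted p under 0.05. Insig1 passed with VB on the Western diet (1.26) and in the difference of the VB effects (1.57), and no gene passed with VB on the control diet.

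The next comparison asked what VB changed on the Western diet. Insig1 was higher in VB mice, and the other 4 tested genes did not pass. This is 1 of 5 called higher, where 3.33% of all tested genes rose and 3.86% fell, and the median log2 change of the 5 was 0.36 against -0.02 over all genes. Insig1 was at 169.5, 106, 136, 100.04 and 96.8 CPM in Western diet VB mice, against 65.0, 67.3, 55.8, 24.0 and 40.9 CPM in Western diet vehicle mice. All 5 VB mice lay above all 5 vehicle mice, as 2.59% of all tested genes did. The rise was 2.40-fold, a log2 change of 1.26 (SE 0.24, adjusted p = 0.00303). Without Western diet vehicle mouse 4 it was 1.09 (SE 0.22, adjusted p = 0.00588).

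Srebf2 averaged 22.1 ± 3.56 CPM in Western diet VB mice and 17.2 ± 2.85 CPM in Western diet vehicle mice (SD, n = 5 each). Every VB mouse was above the vehicle mean, but the groups overlapped, and the log2 change of 0.36 (SE 0.12) had an adjusted p of 0.0835. Leaving out single mice gave 0.27 to 0.43, with adjusted p-values of 0.0489 without Western diet VB mouse 2 to 0.22 without Western diet VB mouse 1. Without Western diet vehicle mouse 4 it was 0.27 (adjusted p = 0.126). Stard4 averaged 21.8 ± 3.96 CPM in Western diet VB mice and 16.6 ± 3.16 CPM in Western diet vehicle mice, a log2 change of 0.39 (SE 0.16, adjusted p = 0.154). Without the same vehicle mouse the Stard4 change was 0.33 (adjusted p = 0.218). For Scap the log2 change was 0.08 (SE 0.13, adjusted p = 0.793), and -0.05 without Western diet vehicle mouse 4. For Insig2 it was 0.16 (SE 0.13, adjusted p = 0.549), with an approximate 95% interval of -0.09 to 0.41.

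On the control diet none of the 5 genes passed the test with VB. EdgeR called 0 of 5, where 0.151% of all tested genes were called, none of the 5 had an unadjusted p under 0.05, and DESeq2 and limma-voom called 0 as well. Of all 12616 tested genes 1354 had an unadjusted p under 0.05, DESeq2 called 164 and limma-voom 261. Insig1 averaged 159 ± 30.3 CPM in control diet VB mice and 197 ± 51.9 CPM in control diet vehicle mice (SD, n = 5 each), a log2 change of -0.31 (SE 0.24, adjusted p = 0.68). Its approximate 95% interval was -0.77 to 0.16. The log2 changes of the other 4 were -0.03 for Srebf2, -0.11 for Stard4, -0.12 for Insig2 and 0.06 for Scap, and the groups overlapped for all 5, while 3.88% of all tested genes did not overlap. These values do not show that VB had no effect, only that none was resolved from the spread between mice.

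Whether VB acted differently on the 2 diets was tested next, a contrast that equals the one between the 2 diet effects, and Insig1 passed it. The VB effect on Insig1 was higher on the Western diet by 1.57 on the log2 scale (SE 0.34, adjusted p = 0.00704), where 3.63% of all tested genes were called upward and 4.01% downward. Without Western diet vehicle mouse 4 the difference was 1.39 (adjusted p = 0.00625). The other 4 genes did not pass. Stard4 differed by 0.50 (SE 0.22, adjusted p = 0.187) and Srebf2 by 0.39 (SE 0.17, adjusted p = 0.188), and both had approximate 95% intervals above 0 before adjustment. Without Western diet vehicle mouse 4 these differences were 0.45 for Stard4 and 0.30 for Srebf2. Scap differed by 0.02 (SE 0.18) and Insig2 by 0.27 (SE 0.18).

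The clock score moved with these comparisons, as its group means above show. Across the 20 mice its correlation with log2 CPM was -0.77 for Insig1, -0.74 for Srebf2 and -0.74 for Stard4, while for deviations from the group means it was 0.15, 0.63 and 0.63. With the score as a covariate the Insig1 change with VB on the Western diet was 1.44 (SE 0.37), a size close to that without it, but the adjusted p was 0.189 and 5 genes in all were called. The Insig1 change with diet in vehicle mice was then -2.46 (SE 0.81, adjusted p = 0.434), and the difference of the VB effects was 1.99 (SE 0.72, adjusted p = 0.742). For diet in vehicle mice Srebf2 was at -2.15 (SE 0.34) and Stard4 at -2.72 (SE 0.42), each with an adjusted p of 0.00217. The scores did not overlap there (1.13 to 1.43 in Western diet and -1.89 to -0.82 in control diet vehicle mice). Nor did they for VB against vehicle on either diet, so in these comparisons score and group cannot be told apart. For diet in VB mice the scores overlapped, with Srebf2 at -0.92 (SE 0.12, adjusted p = 2.98e-05) and Stard4 at -1.07 (SE 0.15, adjusted p = 6.2e-05). For VB on the Western diet the covariate moved Srebf2 to 0.75 (SE 0.16, adjusted p = 0.0718) and Stard4 to 0.91 (SE 0.20, adjusted p = 0.0901). For VB on the control diet it moved Srebf2 to -0.48 (SE 0.17) and Stard4 to -0.73 (SE 0.22), each with an adjusted p of 0.972. In the difference of the VB effects Srebf2 was then at 1.23 (SE 0.30) and Stard4 at 1.64 (SE 0.38), each with an adjusted p of 0.384.

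The 2 INSIG genes were then set against each other within each mouse, a measure that does not depend on library scaling. There were 0.549, 0.269, 0.498, 0.269 and 0.297 Insig1 counts per Insig2 count in Western diet VB mice, against 0.214, 0.207, 0.164, 0.0823 and 0.172 in Western diet vehicle mice. The ratio was 0.382 to 0.694 in control diet VB mice and 0.476 to 0.721 in control diet vehicle mice. Insig2 counts thus exceeded Insig1 counts in all 20 mice, and most so in Western diet vehicle mice. On the log2 scale the ratio was higher by 1.17 in Western diet VB mice than in Western diet vehicle mice (exact two-sided permutation test, p = 0.00794, adjusted p = 0.0159 over 4 comparisons, n = 5 each). It was lower by 1.87 in Western diet vehicle mice than in control diet vehicle mice (a difference of -1.87, exact permutation p = 0.00794, adjusted p = 0.0159). Both p-values are the smallest that 5 against 5 mice can give. Without Western diet vehicle mouse 4, which had the lowest ratio, these differences were 0.93 and -1.63. In VB mice the diets differed by -0.54 (exact permutation p = 0.127, adjusted p = 0.169), and on the control diet VB and vehicle mice differed by -0.16 (exact permutation p = 0.476).

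**Figure D3:**
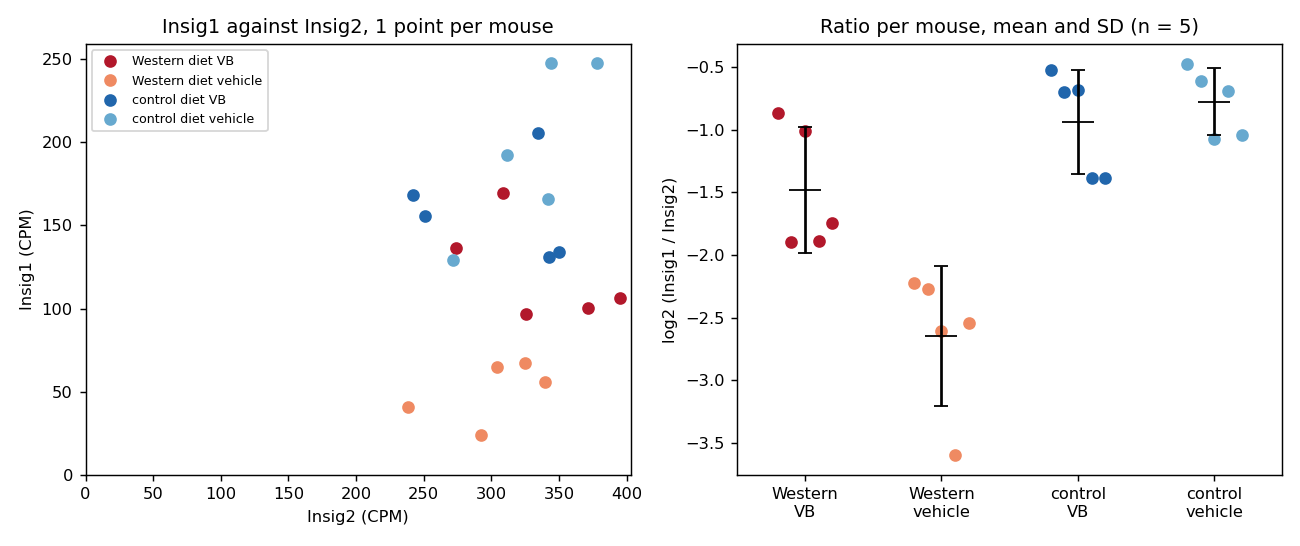
Left, Insig1 (y axis) against Insig2 (x axis) in CPM, 1 point per mouse; right, log2 ratio of Insig1 to Insig2 per mouse by group, with mean and SD of 5 mice. Western diet vehicle mice (0.0823 to 0.214 Insig1 counts per Insig2 count) lay below all other mice in the ratio.

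The 5 genes also differed in how much of their variance lay between the groups. The share was 87.5% for Srebf2, 84.4% for Stard4, 80.2% for Insig1, 54.3% for Scap and 12.03% for Insig2, where the median tested gene had 26.6%. The spread within groups was widest for Insig1, with an SD of 0.43 on the log2 scale, and 0.20 to 0.27 for the others. Over the 20 mice Pearson's r of log2 CPM was 0.923 between Srebf2 and Stard4, 0.873 between Srebf2 and Insig1 and 0.035 between Srebf2 and Insig2. For deviations from the group means the same pairs had r of 0.468, 0.656 and -0.084. These correlations describe 20 mice that share 4 group means, and carry no test. They include Western diet vehicle mouse 4 and were not recomputed without it.

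The genes closest in pattern were then listed, as the 5 with the highest r of log2 CPM over the 20 mice. For Srebf2 they were Dhcr7 and Cyp51, enzymes of late cholesterol synthesis, Fdps, which makes farnesyl diphosphate, and B4galnt1 and Camk1d, with r of 0.942 to 0.955. For Stard4 they were Dhcr7, Cyp51, the phosphomevalonate kinase gene Pmvk, Rdh11 and the glycine methyltransferase gene Gnmt, with r of 0.926 to 0.933. Of 20 cholesterol synthesis enzymes, 17 were among the 100 genes closest to Srebf2, and 17 among those closest to Stard4. For Insig1 only 4 were, and its closest genes included Cyp2r1, which encodes a vitamin D 25-hydroxylase, the virus receptor gene Cxadr, Dock6 and the acyl-CoA synthetase gene Acsl3, with r of 0.925 to 0.944. Scap was closest to Sec14l4, Mug2, P2ry4, Bmp1 and Col18a1, with r of 0.925 to 0.961. No gene reached an r above 0.769 with Insig2, whose closest was Pigv.

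Deviations from the group means, which leave out the differences between groups, gave other lists. These include Western diet vehicle mouse 4, whose log2 CPM of Scap was 5.77, against 6.57 to 6.75 in the rest of its group. The lists were not recomputed without that mouse. Srebf2 was then closest to Slc6a12, which encodes a betaine and GABA transporter (r = 0.891), Stard4 to the amino acid transporter gene Slc38a3 (r = 0.782) and Scap to Vav2 (r = 0.949). Insig1 was closest to 1700066M21Rik (r = 0.877) and Insig2 to Azi2 (r = 0.821). Among the 100 genes then closest, 0 were cholesterol synthesis enzymes for Srebf2, 0 for Insig1 and 1 for Stard4. The median r with those enzymes was 0.446 for Srebf2, 0.418 for Insig1, 0.384 for Stard4, 0.254 for Scap and 0.083 for Insig2. The median r with all other tested genes lay between -0.015 (Insig1) and 0.020 (Scap).

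**Figure D4:**
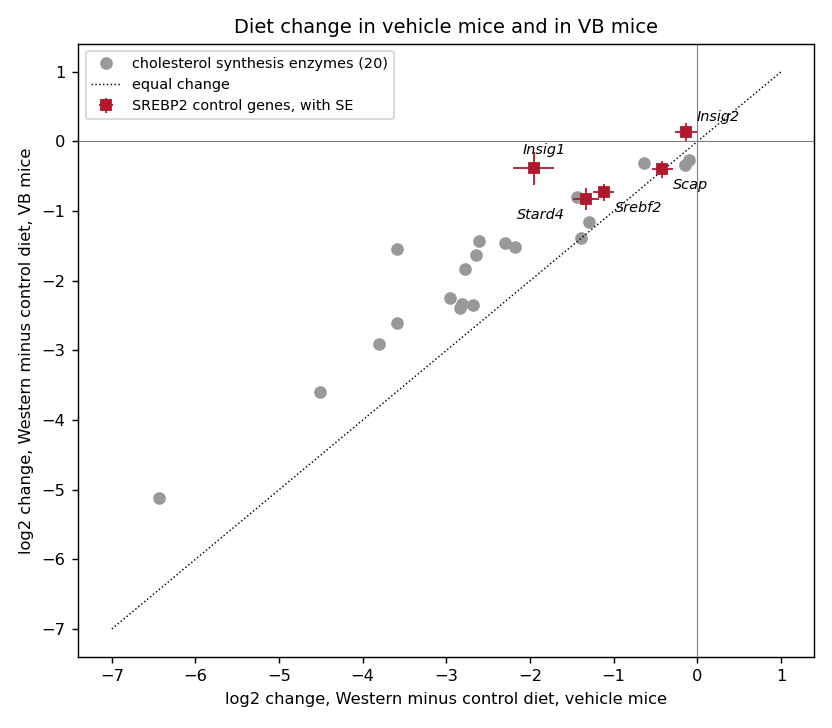
Log2 change, Western minus control diet, in VB mice (y axis) against vehicle mice (x axis) for 20 cholesterol synthesis enzymes and the 5 SREBP2 control genes with their SE; the dotted line marks equal change. Insig1 lay above the line, at -0.39 in VB mice and -1.96 in vehicle mice, while Srebf2 and Stard4 lay closer to it.

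Among other genes of the pathway, the cholesterol synthesis enzymes that SREBP2 activates fell with diet. In VB mice 18 of 20 fell and none rose, with a median log2 change of -1.59, and in vehicle mice 18 of 20 fell with a median of -2.67. Of all tested genes 3.22% fell in VB mice and 7.59% in vehicle mice. Tm7sf2, a sterol reductase gene, changed by -1.46 (SE 0.09) in VB mice and by -2.30 (SE 0.10) in vehicle mice. Idi1, which encodes isopentenyl diphosphate isomerase, changed by -3.60 (SE 0.15) in VB mice and by -4.52 (SE 0.16) in vehicle mice. With VB on the Western diet 8 of 20 rose and none fell, at a median of 0.39, beside 3.33% of all tested genes that rose. Tm7sf2 was at 0.57 (SE 0.09) and Mvd, of the mevalonate branch, at 1.33 (SE 0.25), while DESeq2 called 10 and limma-voom 4. Of all 12616 tested genes DESeq2 called 1249 there and limma-voom 1175. The difference of the VB effects was called upward in 11 of 20, beside 3.63% of all tested genes, with Mvd at 2.04 (SE 0.33). On the control diet edgeR called 0 of the 20 with VB and DESeq2 called 0, whereas limma-voom called 3 and 9 had an unadjusted p under 0.05. Of all 12616 tested genes edgeR called 19 there, DESeq2 164 and limma-voom 261, and 1354 had an unadjusted p under 0.05.

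Genes that process, hold or degrade SREBP and INSIG proteins are a separate list. Of 19 measured, 4 rose and none fell with diet in vehicle mice, at a median of 0.14, where 8.92% of all tested genes rose and 7.59% fell. Rnf145, which encodes a ubiquitin ligase that acts on SCAP, rose by 0.76 (SE 0.13, adjusted p = 0.000351), and Sec23a, of the vesicle coat that carries SCAP, by 0.41 (SE 0.12). Erlin1, which takes part in the degradation of proteins of the endoplasmic reticulum, rose by 0.32 (SE 0.11). With VB on the Western diet 3 fell and none rose, beside 3.86% and 3.33% of all tested genes, namely Rnf145 at -0.44 (SE 0.13), Pgrmc1 at -0.42 (SE 0.09) and the coat GTPase gene Sar1b at -0.31 (SE 0.08). In edgeR Rnf145 was also the single gene of this list called in the difference of the VB effects, at -0.70 (SE 0.19, adjusted p = 0.0244), opposite in sign to Insig1. Of all tested genes 4.01% were called downward in that difference and 3.63% upward. The protease genes Mbtps1 and Mbtps2 were called in no comparison in edgeR. With diet in VB mice edgeR called 0 of the 19, DESeq2 1 and limma-voom 2, and 3 had an unadjusted p under 0.05. Of all 12616 tested genes edgeR called 813 there, DESeq2 1201 and limma-voom 1421, and 2719 had an unadjusted p under 0.05. For VB on the control diet each of the 3 tools called 0, and 1 had an unadjusted p under 0.05, as did 1354 of all 12616 tested genes.

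Of 16 genes of sterol movement and storage, 4 rose and 3 fell with diet in vehicle mice, beside 8.92% and 7.59% of all tested genes. Lima1, a partner of NPC1L1 in mouse intestine, rose by 0.85 (SE 0.12) and Npc1, which exports cholesterol from lysosomes, by 0.52 (SE 0.12), while Osbp, a sterol exchanger, changed by -0.61 (SE 0.13) and Tmem97 by -0.57 (SE 0.12). In edgeR Lima1 was the 1 gene of the 16 called with VB on the Western diet, at -0.49 (SE 0.12). Of all tested genes 3.86% fell and 3.33% rose there in edgeR. DESeq2 called 2 of the 16 and limma-voom 2, where of all 12616 tested genes they called 1249 and 1175. The VB effect on Lima1 differed between diets by -0.66 (SE 0.17). In VB mice Npc2 changed by -0.37 (SE 0.08) and Gramd1a by -0.42 (SE 0.12) with diet. Of 12 lipoprotein uptake genes 1 rose and 2 fell with diet in vehicle mice, against the same background, with Lrpap1 at -0.24 (SE 0.07) and Hspg2 at -0.75 (SE 0.23), and edgeR called 0 in the other 4 comparisons. In those, up to 5 of the 12 had an unadjusted p under 0.05, DESeq2 called at most 1 and limma-voom at most 1. The 5 were for diet in VB mice, where 2719 of all 12616 tested genes had such a p, DESeq2 called 1201 and limma-voom 1421.

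On the side of SREBP1 and the sterol-activated receptor LXR, 5 of 8 genes rose with diet in VB mice and 4 in vehicle mice, and none fell. Of all tested genes 3.23% rose in VB mice and 8.92% in vehicle mice. In VB mice the sterol export gene Abcg5 changed by 1.74 (SE 0.17), its partner Abcg8 by 1.43 (SE 0.17) and Abca1, of HDL formation, by 0.78 (SE 0.12). In vehicle mice the rise was 1.83 (SE 0.17) for Abcg5, 1.48 (SE 0.17) for Abcg8 and 0.51 (SE 0.12) for Abca1. Srebf1, which encodes the sister factor that drives fatty acid synthesis and also acts on Insig1, rose with diet by 2.00 (SE 0.37, adjusted p = 0.0024) in VB mice and was at 0.66 (SE 0.35) without passing in vehicle mice. With VB on the Western diet Srebf1 was at 0.65 (SE 0.35) and did not pass, while Mlxipl, which encodes the carbohydrate-sensing factor ChREBP, rose by 0.58 (SE 0.13, adjusted p = 0.00723). The lists of other pathway genes were each set beside all tested genes, whose median log2 change lay between -0.02 and 0.02 in every comparison.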

How the data were processed

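The authors deposited unnormalized read counts for each gene symbol in 40 lane columns, from TruSeq libraries of liver RNA, per the labels. Per the submitters' processing notes the build was GRCm38. No source used here gives the aligner, counter, annotation or strand setting. The 2 lane files of each mouse (chi-square per degree of freedom 1.33 to 1.49 between lanes, at least 10.3 between mice of a group) were added together. For 1 lane of Western diet VB mouse 1 the title gives VB but the treatment label gives vehicle. The title was followed, as the other lane carries VB in both.

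Genes were filtered with filterByExpr (minimum count 10, minimum total 15), which left 12616 genes with 99.95% of counts. They were scaled by TMM and fitted over 4 groups with robust quasi-likelihood models in edgeR 4.0.16 (R 4.3.3). The SE is the log2 change divided by the square root of F. DESeq2 1.42.0 and limma 3.58.1 were alternatives. Log2 CPM used a prior count of 2. Ratios were tested in scipy 1.17.1. Exon lengths and overlaps come from GENCODE M21. The procedure was checked on simulated counts.

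Within the gene bodies of Srebf2 (chromosome 15, 82147181 to 82205379, plus strand, GRCm38), Scap and Insig2 lie other annotated genes, those in Scap and Insig2 on the opposite strand, and with the strand setting unknown their reads cannot be told apart from the host's. Named genes were all 6 members, up to 4 called genes with the smallest p per list and comparison, and the 5 genes closest in pattern to each member. The members, lists and tests were chosen with earlier results of these data known. A few genes named by these rules are not reported here. Intervals and detection limits cover counting error or the spread between mice only.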

Additional observations from a re-analysis of the deposited data

Results flagged for a closer look

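The VB effect on Insig1 differed between the diets by 1.57 on the log2 scale in the test of that difference. Scap was low in Western diet vehicle mouse 4, where its gap to the next mouse made up 0.81 of the range of the group, above the critical value of 0.71 for 5 mice. Of 20 sets of 5 mice tested, this was the 1 past that value, and chance gives about 1 in 20. The same mouse had the highest share of mitochondrially encoded counts, 4.62%, whose part in the low Scap level was not tested. Without it, Scap changed with diet in vehicle mice by -0.30 instead of -0.42, and Insig1 differed between the VB effects by 1.39.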

How the results depend on the processing

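The Insig1 rise with VB on the Western diet stayed called in every alternative run except the clock score as a covariate, and leaving out single mice gave 1.09 to 1.39. The number of members called with VB on the Western diet was 1, against 2 with lane 2 only and 0 with the clock score, and 1 to 2 without single mice (2 without Western diet VB mouse 2). For diet in vehicle mice it was 4, against 2 with the clock score and 3 to 4 without single mice. There the Scap call was also lost with lane 2 only (adjusted p = 0.0727) and with only the groups compared (adjusted p = 0.095). For the difference of VB effects the number was 1, against 0 with the clock score. The replicate block by mouse number left the count of members at 4 for diet in vehicle mice, 1 for VB on the Western diet and 0 on the control diet, and at 1 for the difference. For diet in VB mice it gave 3 members in place of 2, with Scap at -0.40 (adjusted p = 0.0447), and 2 to 3 were called without single mice. Scap was also called there in DESeq2, in limma-voom, with lane 1 only and with only the groups compared. Same-numbered mice correlated in their deviations at -0.065 to 0.378 over 30 pairs, and no pair of groups had all 5 above 0.1, so the numbers were not taken as pairing.

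Changes near 0 took the opposite sign in some settings. With the clock score, Scap with VB on the control diet was -0.064, and Insig2 was 0.26 with VB on the control diet, -0.17 with VB on the Western diet, 0.72 with diet in vehicle mice and -0.43 in the difference of VB effects. Scap was -0.024 with VB on the Western diet and -0.083 in the difference under limma-voom, and -0.025 in the difference with lane 2 only. Without single mice, Scap ranged from -0.048 to 0.16 with VB on the Western diet and from -0.11 to 0.091 in the difference, and Srebf2 from -0.082 to 0.034 with VB on the control diet. The cause was not tested.

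The count of all genes called with VB on the control diet was 19, against 164 in DESeq2, 261 in limma-voom, 65 with the replicate block, 66 with only the groups compared, 0 with the clock score and 6 to 66 without single mice. It was also 29 with upper-quartile scaling or the stricter filter, 36 with lane 2 only and 30 without Mup genes in library sizes. With VB on the Western diet it was 907, against 464 with only the groups compared, 5 with the clock score and 605 to 1225 without single mice. For diet in vehicle mice it was 2083, against 33 with the clock score. For diet in VB mice it was 813, against 1421 in limma-voom, 1397 without Western diet vehicle mouse 4 and 541 without control diet VB mouse 4. For the difference of VB effects it was 964, against 1661 in limma-voom, 1702 without that vehicle mouse and 0 with the clock score. The log2 ratio of Insig1 to Insig2 kept its direction and its side of the threshold in all 52 values recomputed. In the called comparisons the groups do not overlap in the ratio, so leaving out a mouse could not change the side. The exact permutation test then gave an adjusted p of 0.0317 in each such run. No alternative restricted to the groups compared was run for the difference of VB effects, which needs all 4 groups.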
